A study of Mus musculus with 6 samples.

Results

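The thin filament and light chain genes of the cardiac sarcomere, together with a few thick filament and Z-disc partners, were followed in mouse hearts after inhibition of the kinases MEK1 and MEK2. The 10 members, matched by gene symbol to a table of 21705 genes, were Tnnt2, Tnni3, Tnnc1, Tpm1, Actc1, Myl2, Myl3, Mybpc3, Tcap and Csrp3. All 10 were found and all 10 exceeded the minimum mean value of 10 that a gene needed to be tested. Messenger RNA of whole hearts was sequenced from 12 to 16 week old female wild-type FVB mice that received trametinib, an allosteric MEK inhibitor, at 3 mg/kg once daily for 14 days (n = 3 hearts), or vehicle once daily for 14 days (n = 3 hearts). No allele was altered in either arm, and each heart was labelled as a separate female. Values are normalized counts, that is, estimated counts per gene divided by a factor per library. They summed to between 21656431 and 22330993 per heart, and the smallest steps between low values put the depth at 23023791 to 24716020 estimated reads in trametinib hearts and 14316570 to 16031691 in vehicle hearts. Each member rested on at least 15577 estimated reads in every heart, so counting error was small beside the spread between hearts.

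In striated muscle, myosin heads pull on a thin filament made of actin, tropomyosin and the troponin complex. Calcium binds troponin C, troponin I then releases actin, and troponin T, which anchors the complex to tropomyosin, passes this on so that tropomyosin uncovers the myosin binding sites. Each myosin head carries an essential and a regulatory light chain, myosin-binding protein C sets how readily heads engage, and telethonin and muscle LIM protein sit at the Z-disc, where titin and actin filaments are anchored. Variants in many of these genes cause human hypertrophic or dilated cardiomyopathy.

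The sequence before the transcription start is shown for 4 members that span the range of responses, from Myl3, which fell strongly, through Tnnc1 and Actc1 to Mybpc3, which did not pass the test. The sequences are from RefSeq on GRCm38.p6, each running from 250 bases before to 50 bases after a transcription start, 5′ to 3′ on the gene's own strand. The deposited values rest on mm9, so these positions are not those of the authors' annotation. Of the 10 members, 9 had an entry in the promoter table, all but Tcap. Capitals mark the CArG box, the site of serum response factor, the MEF2 site, the letters CATTCC of the TEAD site and TATAAA, each searched on both strands.
Myl3: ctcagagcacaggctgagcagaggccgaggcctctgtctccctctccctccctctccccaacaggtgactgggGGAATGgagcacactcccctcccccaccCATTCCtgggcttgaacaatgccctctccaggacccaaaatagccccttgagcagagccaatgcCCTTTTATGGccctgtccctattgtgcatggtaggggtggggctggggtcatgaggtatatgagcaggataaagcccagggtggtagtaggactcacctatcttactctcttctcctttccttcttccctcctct
Tnnc1: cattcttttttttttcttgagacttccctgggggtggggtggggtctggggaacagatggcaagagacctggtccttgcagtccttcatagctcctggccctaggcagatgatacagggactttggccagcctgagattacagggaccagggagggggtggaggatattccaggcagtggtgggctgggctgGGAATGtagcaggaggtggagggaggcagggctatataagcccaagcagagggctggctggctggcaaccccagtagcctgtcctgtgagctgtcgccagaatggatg
Actc1: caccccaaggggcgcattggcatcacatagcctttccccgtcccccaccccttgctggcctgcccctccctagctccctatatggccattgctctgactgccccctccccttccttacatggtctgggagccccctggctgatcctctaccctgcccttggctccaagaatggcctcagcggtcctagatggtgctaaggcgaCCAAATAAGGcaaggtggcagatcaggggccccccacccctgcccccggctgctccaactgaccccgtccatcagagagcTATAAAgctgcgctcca
Mybpc3: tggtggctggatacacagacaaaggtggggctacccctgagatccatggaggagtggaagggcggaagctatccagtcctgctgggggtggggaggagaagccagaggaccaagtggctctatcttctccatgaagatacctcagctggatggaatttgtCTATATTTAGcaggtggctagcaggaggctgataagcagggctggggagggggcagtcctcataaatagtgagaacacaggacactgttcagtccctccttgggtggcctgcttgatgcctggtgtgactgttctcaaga
The Myl3 window lies at chr9:110763428-110763727 on the plus strand, the Tnnc1 window at chr14:31208062-31208361 on the plus strand, the Actc1 window at chr2:114052826-114053125 on the minus strand and the Mybpc3 window at chr2:91117894-91118193 on the plus strand. A CArG box was found in 2 of the 9 member windows, those of Myl3 (at -85 from the start) and Actc1 (at -47), and in 1.63% of 32851 windows in the table. A MEF2 site was found in 1 of the 9, that of Mybpc3 (at -90), and in 1.86% of all windows. CATTCC was found in 4 of the 9 (Tnnt2, Tnnc1, Tpm1 and Myl3) and in 14.7% of all windows. The listed start of Tpm1 lies 193 bases from the gene's annotated start. TATAAA was found in 2 of the 9 (Actc1, at 33 past the listed start, and Myl2, whose listed window lies 7794 bases from the gene's annotated start) and in 13.6%. AGATAA, bound by zinc finger factors of the heart, was found in 1 of the 9 (Tnnt2) and in 11.2% of all windows, and CCGGAA, an ETS site, in 0 of the 9 and in 14.9%. No match overlapped another. The members with a CArG box and those without it both included genes that fell, and the single member that did not pass held the MEF2 match.

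Of the 10 members, 9 were lower with trametinib and 0 higher at an adjusted p below 0.05 (limma across all tested genes, Benjamini-Hochberg), beside 22.8% of the 13581 tested genes lower and 21.6% higher. Mybpc3 did not pass. The log2 fold change ran from -1.60 for Tcap to -0.11 for Mybpc3, with a median of -0.74, against -0.01 over all tested genes. All 3 trametinib hearts lay below all 3 vehicle hearts for all 10 members, as they did for 29.5% of tested genes, whereas 27.0% of tested genes had the arms the other way round. A pseudocount of 1 was added before taking log2.

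**Figure D1:**
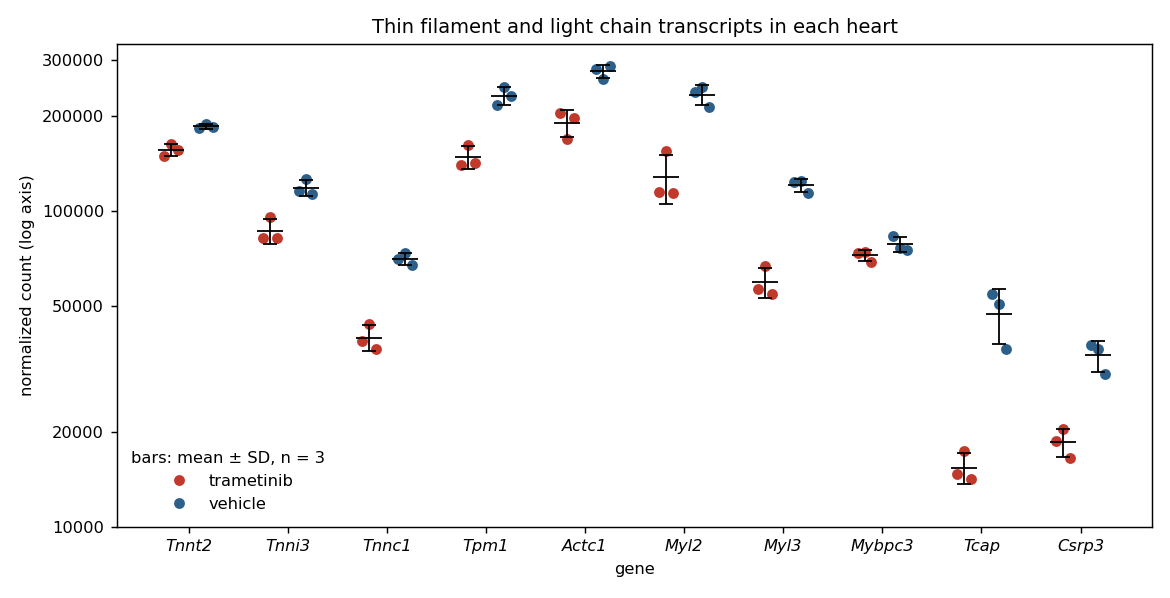
Normalized counts of the 10 members (log axis) in each of 3 trametinib hearts (red, left) and 3 vehicle hearts (blue, right), with mean ± SD. The red points lie below the blue points for all 10 genes, with the widest gap in Tcap (14147 to 17411 against 36564 to 54420) and the narrowest in Mybpc3.

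All 3 troponin subunits were lower in the deposited values, unequally, and the signs of Tnni3 and Tnnt2 turned after a correction for transcript length and GC content described further on. Tnnc1, which encodes the calcium-binding subunit troponin C, measured 38806, 43889 and 36477 normalized counts in trametinib hearts, against 70466, 73416 and 67484 in vehicle hearts. The lowest vehicle heart stood well above the highest trametinib heart, and the log2 fold change was -0.83 ± 0.08 (SE; adjusted p = 0.000387). Tnni3, the inhibitory subunit of adult heart, measured 81874, 95834 and 82172 in trametinib hearts, against 115846, 126424 and 113266 in vehicle hearts (-0.45 ± 0.09; adjusted p = 0.0045). Tnnt2, the tropomyosin-binding subunit, had the smallest troponin change, with 149324, 162847 and 156503 in trametinib hearts, against 182882, 188778 and 184460 in vehicle hearts (-0.25 ± 0.07; adjusted p = 0.0209). Groups did not overlap for any of the 3 genes, and the gap was narrowest, on the log scale, for Tnnt2. The Tnnt2 call was lost without trametinib replicate 1 (adjusted p = 0.0802), trametinib replicate 3 (0.0829), vehicle replicate 2 (0.0712) or vehicle replicate 3 (0.0501), with median-of-ratios scaling (0.0983) and without a filter (0.0874). Quantile normalization set its log2 fold change to 0.00, and the length and GC correction turned it to 0.25, a call in the higher direction (adjusted p = 0.0462). Exons of Tnni3 overlap those of Dnaaf3 on the same strand in GENCODE M21, so some reads there could belong to either gene.

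The tropomyosin and actin of the filament itself were lower too. Tpm1, the main tropomyosin gene of mouse heart, measured 140019, 162296 and 142118 normalized counts in trametinib hearts, against 216843, 247208 and 231509 in vehicle hearts (log2 fold change -0.65 ± 0.09; adjusted p = 0.00116). Actc1, cardiac alpha-actin, measured 203964, 169365 and 196911 in trametinib hearts, against 281046, 262179 and 287381 in vehicle hearts (-0.55 ± 0.09; adjusted p = 0.00289). Trametinib replicate 2 was the highest of its arm for Tpm1 and for the troponins Tnnt2, Tnni3 and Tnnc1, but the lowest for Actc1. Alpha-actins are close copies of each other, as are tropomyosins, so reads may have been split between relatives.

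Both ventricular light chain genes fell. Myl3, the essential light chain of ventricle and slow muscle, measured 56742, 67133 and 54757 normalized counts in trametinib hearts, against 123214, 124270 and 114312 in vehicle hearts (log2 fold change -1.02 ± 0.09; adjusted p = 0.000298). Its mean in trametinib hearts was 0.494 times that in vehicle hearts. Myl2, the regulatory light chain of ventricle, measured 115240, 154322 and 113862 in trametinib hearts, against 238347, 246362 and 213917 in vehicle hearts (-0.88 ± 0.13; adjusted p = 0.00156). Trametinib replicate 2 stood apart from the others of its arm for Myl2 and still lay far below every vehicle heart. Exons of Myl2 and Myl3 overlap exons of Ccdc63 and Pth1r on the opposite strand, and no source used here says whether counting was strand-aware.

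The widest change was at the Z-disc. Tcap, which encodes telethonin, a cap on the titin end, measured 14652, 17411 and 14147 normalized counts in trametinib hearts, against 54420, 50596 and 36564 in vehicle hearts. The mean was 0.326 times that of vehicle hearts, with a log2 fold change of -1.60 ± 0.15 (adjusted p = 0.000372), although vehicle hearts spread widely, with a coefficient of variation of 19.9% against 11.4% in trametinib hearts. Csrp3, which encodes muscle LIM protein, measured 18686, 20384 and 16561 in trametinib hearts, against 37748, 36539 and 30444 in vehicle hearts (-0.91 ± 0.11; adjusted p = 0.000641). Vehicle replicate 3 was the lowest vehicle heart for Tcap, Csrp3, Myl2, Myl3, Tnnc1 and Tnni3, and remained above all trametinib hearts for each. Mybpc3, myosin-binding protein C of heart and the thick filament member of the group, measured 73855, 74210 and 68950 in trametinib hearts, against 83387, 76341 and 75392 in vehicle hearts. The groups lay close together without overlapping, and the log2 fold change of -0.11 ± 0.07 did not pass (adjusted p = 0.208). It passed with quantile normalization (-0.22, adjusted p = 0.0167).

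Set against one another per length of transcript, the members changed their order. On a scale of normalized counts per kilobase, with lengths from GENCODE M21, Myl2 stood highest in both arms, at 193064 ± 34701 in trametinib hearts and 351776 ± 25529 in vehicle hearts (SD, n = 3 each). In trametinib hearts it was followed by Tnnt2 (137431 ± 5952), Actc1 (129043 ± 12412), Tnni3 (94986 ± 8745), Tpm1 (92486 ± 7679), Myl3 (63547 ± 7094), Tnnc1 (55095 ± 5257), Csrp3 (20883 ± 2157), Mybpc3 (17376 ± 706) and Tcap (16248 ± 1853). Among these neighbours the hearts' values overlapped for Tnnt2 and Actc1, Tnni3 and Tpm1, Myl3 and Tnnc1, and Mybpc3 and Tcap. In vehicle hearts the order after Myl2 was Actc1 (187962 ± 8900), Tnnt2 (163073 ± 2685), Tpm1 (144745 ± 9480), Tnni3 (129947 ± 7645), Myl3 (128707 ± 5838), Tnnc1 (97719 ± 4113), Tcap (49782 ± 9917), Csrp3 (39313 ± 4409) and Mybpc3 (18826 ± 1049), with overlaps for Tpm1 and Tnni3, Tnni3 and Myl3, and Tcap and Csrp3. Tcap thus ranked 10 of the 10 in trametinib hearts and 8 in vehicle hearts. Levels per kilobase assume the mean length of the annotated transcripts, which for Tpm1 averages 10 of them.

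Together the 10 genes held 4.12%, 4.40% and 3.95% of all normalized counts in trametinib hearts, against 6.39%, 6.50% and 6.22% in vehicle hearts. This share does not depend on how libraries were scaled, but it is not free of the trend with transcript length described further on. The part that this trend had in the share was not tested. Groups did not overlap in the share (exact two-sided permutation test, p = 0.1, the smallest that 3 hearts against 3 can give). Fewer cardiomyocytes and less of these RNAs per cardiomyocyte cannot be told apart in whole-heart RNA.

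Ratios between members and their relatives within a heart are likewise free of library scaling, though not of the trend with transcript length described further on. Of 10 planned ratios of length-scaled values 9 could be computed, and 7 of these did not overlap between arms. Each of the 7 had an exact two-sided permutation p = 0.1, the smallest possible, or 0.129 after adjustment over the 9. Among single tested genes, 29.5% had all trametinib hearts below all vehicle hearts and 27.0% had them above. The share over other gene pairs was not computed, so the count of 7 has no background to be read against. Cardiac actin against the main myosin heavy chain, Actc1/Myh6, was 0.994, 0.814 and 0.88 in trametinib hearts, against 1.79, 1.79 and 1.83 in vehicle hearts. The vehicle hearts were nearly alike, and the difference in log2 ratio was -1.01, or -0.37 with both genes corrected for length and GC content, an alternative chosen after seeing the data. Within the troponin complex, Tnnc1/Tnni3 was 0.60, 0.579 and 0.561 in trametinib hearts, against 0.769, 0.735 and 0.754 in vehicle hearts, and Tnnt2/Tnni3 was 1.46, 1.36 and 1.53 against 1.27, 1.198 and 1.31. The difference in log2 ratio was -0.38 for Tnnc1/Tnni3 and 0.21 for Tnnt2/Tnni3, or -0.28 and 0.11 with that correction. Tcap/Mybpc3 was 0.871, 1.03 and 0.901 in trametinib hearts, against 2.87, 2.91 and 2.13 in vehicle hearts, and the light chains Myl3/Myl2 shifted less, at 0.348, 0.307 and 0.34 against 0.365, 0.356 and 0.378. Their differences in log2 ratio were -1.49 and -0.15, or -0.78 and -0.27 with that correction.

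**Figure D2:**
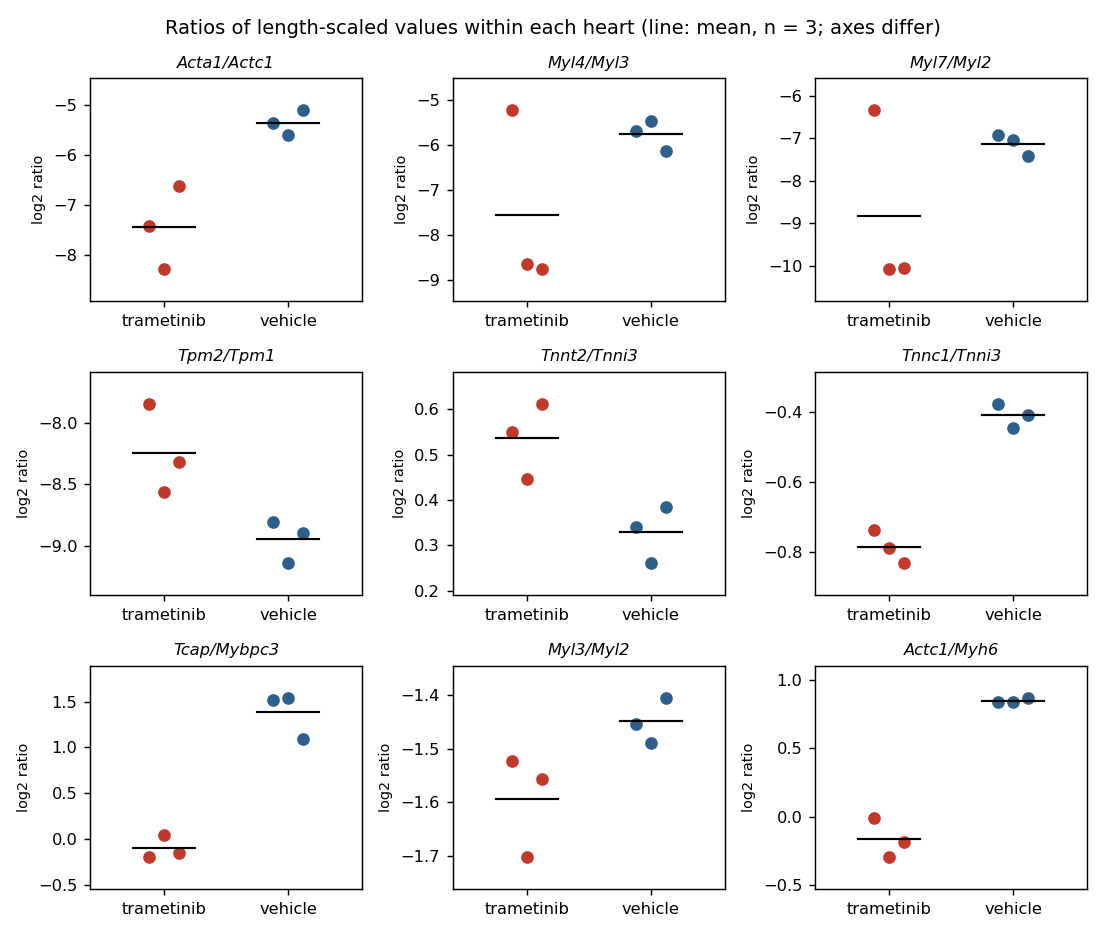
Log2 ratio of length-scaled values in each heart for 9 gene pairs, trametinib hearts in red on the left and vehicle hearts in blue on the right, with a line at the mean of 3 hearts; each panel has its own axis. Arms do not overlap for 7 pairs, whereas for Myl4/Myl3 and Myl7/Myl2 trametinib replicate 1 lies above all vehicle hearts and the other trametinib hearts far below them.

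Isoforms that mark fetal or atrial muscle stayed a small part of each pair. Acta1, skeletal alpha-actin, which the fetal and stressed heart also uses, made up 0.581%, 0.317% and 1.01% of its length-scaled sum with Actc1 in trametinib hearts, against 2.38%, 2.01% and 2.83% in vehicle hearts. Its values were 1170, 529 and 1972 normalized counts in trametinib hearts, against 6713, 5284 and 8225 in vehicle hearts (log2 fold change -2.63 ± 0.43; adjusted p = 0.00236). Tpm2, another tropomyosin, measured 504 ± 101 in trametinib hearts and 478 ± 28.5 in vehicle hearts (SD, n = 3 each; adjusted p = 0.748), and made up 0.433%, 0.265% and 0.313% of its sum with Tpm1 in trametinib hearts, against 0.223%, 0.177% and 0.21% in vehicle hearts. Tnni1, the fetal and slow skeletal troponin I, measured 8.46, 2.67 and 0 in trametinib hearts, against 6.12, 7.70 and 5.43 in vehicle hearts, too low for testing, and its ratio to Tnni3 was not computed because of the value listed at 0. Myl4, the atrial essential light chain, made up 2.60%, 0.25% and 0.23% of its sum with Myl3 in trametinib hearts, against 1.91%, 2.21% and 1.40% in vehicle hearts, and Myl7, the atrial regulatory light chain, 1.21%, 0.092% and 0.0944% of its sum with Myl2, against 0.816%, 0.749% and 0.585%. The difference in log2 ratio was -1.78 for Myl4/Myl3 and -1.70 for Myl7/Myl2 (exact permutation p = 0.4 each), and -2.94 for either pair without trametinib replicate 1. Without trametinib replicate 2 or 3 they were -1.23 and -1.17 for Myl4/Myl3 and -1.07 and -1.09 for Myl7/Myl2. The 4 atrial markers Myl4, Myl7, Sln and Nppa summed to 3724 normalized counts in trametinib replicate 1, 606 and 544 in the other trametinib hearts, and 6723 to 11661 in vehicle hearts, none of them at 0. The part that atrial tissue in the sample had in these ratios was not tested.

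Most members are short transcripts, and the change of a gene followed its transcript length across the whole table (Spearman rho 0.51 over 13512 genes that share the same 6 libraries). Of the 10 members, 9 fell in the shortest of 5 equal length bins, up to 1655 nt, where 57.6% of genes were lower and 4.88% higher and the median log2 fold change was -0.45. Mybpc3, at 4163 nt, fell in bin 4, from 3383 to 4725 nt, where 8.14% were lower, 28.7% were higher and the median was 0.14. Members of nearly equal length differed widely in their log2 fold change: Csrp3 (888 nt) -0.91, Tnni3 (912 nt) -0.45, Myl3 (937 nt) -1.02 and Tcap (948 nt) -1.60. They also differed in GC content, at 52.1% for Csrp3, 55.8% for Tnni3, 55.4% for Myl3 and 61.3% for Tcap. Within the shortest bin Tcap lay at the 2.0 percentile of log2 fold change, Myl3 at 8.14, Csrp3 at 12.4, Myl2 at 13.8, Tnnc1 at 16.8, Tpm1 at 30.7, Actc1 at 40.0, Tnni3 at 49.6 and Tnnt2 at 69.3, and within its own bin Mybpc3 lay at the 24.4 percentile.

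**Figure D3:**
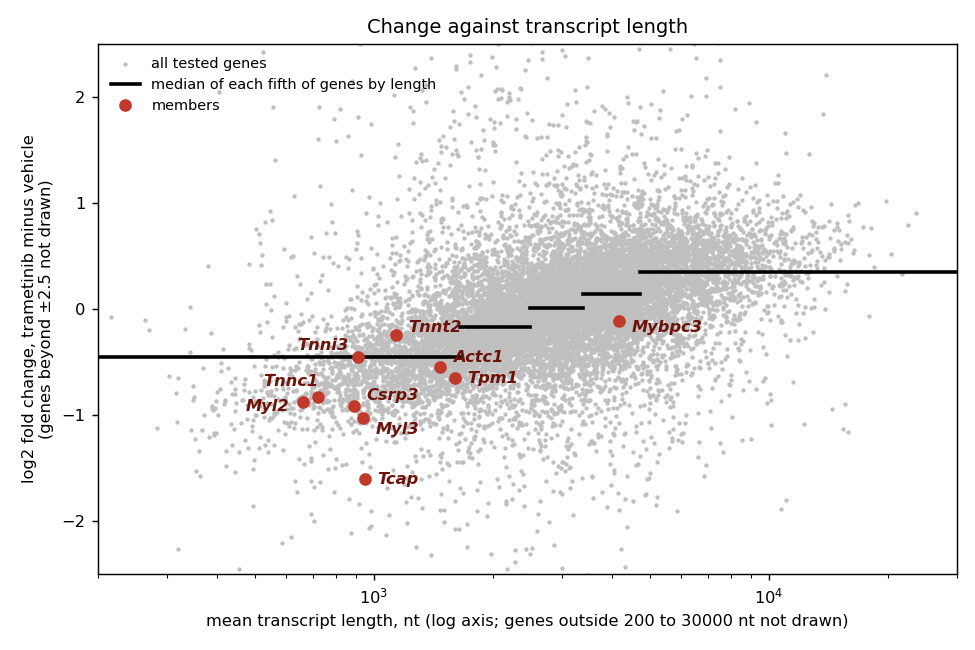
Log2 fold change (trametinib minus vehicle) against mean transcript length (nt, log axis) for all tested genes (grey) and the 10 members (red, named), with black lines at the median of each of 5 length bins. The medians climb from -0.45 in the shortest to 0.35 in the longest bin, with Tcap, Myl3 and Csrp3 well below the first line and Tnnt2 above it.

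After a correction of each library for transcript length and GC content, the direction held for 8 of the 10 members but most changes shrank. Tcap was then lower by a log2 fold change of -1.02 (adjusted p = 0.00322), Myl3 by -0.44 (adjusted p = 0.00799), Csrp3 by -0.33 (adjusted p = 0.037) and Tpm1 by -0.34 (adjusted p = 0.0423). Tnnc1 (-0.14, adjusted p = 0.135), Myl2 (-0.17, adjusted p = 0.273) and Actc1 (-0.19, adjusted p = 0.188) no longer passed. The signs of Tnnt2 (0.25, adjusted p = 0.0462) and Tnni3 (0.14, adjusted p = 0.215) turned, and Mybpc3 had -0.24 (adjusted p = 0.0803). With the correction 4 members were lower and 1 higher, beside 13.8% of tested genes lower and 15.3% higher. The median of the members was -0.21, and that of all tested genes 0.00. Such a correction removes a technical trend with length and a biological change that runs with length alike, and the deeper sequencing of all trametinib libraries cannot be told apart from treatment.

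**Figure D4:**
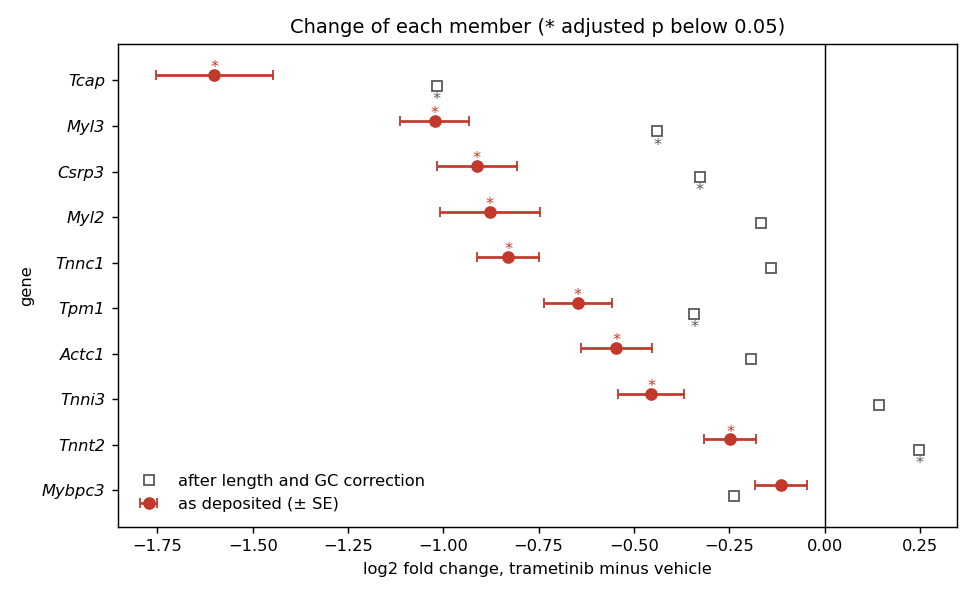
Log2 fold change of each member (trametinib minus vehicle), as deposited (red, ± SE) and after the length and GC correction (open squares); asterisks mark an adjusted p below 0.05. As deposited 9 members pass, all lower; after correction Tcap, Myl3, Csrp3 and Tpm1 pass as lower and Tnnt2 as higher.

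Related sarcomere genes did not all follow the members. Counts in the lists that follow stand beside 22.8% of all tested genes lower and 21.6% higher. After the length and GC correction these shares were 13.8% and 15.3%. The thick filament and M-band list had 10 tested genes, of which 5 were higher, 2 were lower and 3 missed the threshold. Its median log2 fold change was 0.36, beside -0.01 for all tested genes. After that correction 3 were higher and 2 lower, and the median was 0.03, beside 0.00 for all tested genes. Myh6, the fast myosin heavy chain of adult mouse heart, measured 873685 ± 41133 normalized counts in trametinib hearts and 632196 ± 24955 in vehicle hearts (SD, n = 3 each; log2 fold change 0.47 ± 0.09, adjusted p = 0.00496), a call lost without a filter, under quantile normalization (0.00) and with values corrected for length and GC content (0.17, adjusted p = 0.287). Titin, Ttn, had 0.82 ± 0.08 (adjusted p = 0.000414) and turned to -0.12 after that correction (adjusted p = 0.397). Myomesin, Myom1, and the slow heavy chain Myh7 were higher as well, at 0.53 ± 0.06 and 0.63 ± 0.07, and kept their calls after it.

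Among 16 tested thin filament isoforms and capping proteins outside the members, 4 were lower and 2 higher and the remaining 10 missed the threshold (median log2 fold change 0.05); the other 3 of the 19 were below the minimum mean value. Beside Acta1, those lower were Lmod2, leiomodin, which lengthens thin filaments at their pointed ends (14956 ± 1391 normalized counts in trametinib hearts and 23932 ± 5329 in vehicle hearts; -0.66 ± 0.15, adjusted p = 0.0113), its relative Lmod3 (-0.27 ± 0.09) and the slow troponin Tnnt1 (-0.82 ± 0.26). All of these but Acta1 lost their calls after the length and GC correction, and those of Lmod3 and Tnnt1 also without 5 of the 6 single hearts. Nexn, a Z-disc actin-binding protein, was higher (24340 ± 403 normalized counts in trametinib hearts and 16670 ± 1333 in vehicle hearts). Its log2 fold change was 0.55 ± 0.07 (adjusted p = 0.000822). Nebulette, Nebl, was higher too (0.49 ± 0.05) but lost its call after the correction (0.15, adjusted p = 0.09). Tpm3 (0.30, adjusted p = 0.0375), Actb (0.42, adjusted p = 0.0114) and Actg1 (0.59, adjusted p = 0.0152) gained calls as higher with it. The corrected list had 1 gene lower and 4 higher.

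Of 13 tested myosin light chains and light chain kinases or phosphatase subunits outside the members, 6 were lower and 2 higher, while 5 missed the threshold (median -0.62). Among the 6 were the atrial Myl4 (-2.80 ± 0.85, adjusted p = 0.0307) and Myl7 (-2.57 ± 0.88, adjusted p = 0.0472), whose calls were lost without any one of 5 hearts, all but trametinib replicate 1. The non-muscle regulatory light chains Myl12a (9651 ± 1238 normalized counts in trametinib hearts and 19067 ± 1196 in vehicle hearts; -0.99 ± 0.10, adjusted p = 0.000419) and Myl12b (-0.77 ± 0.06) were lower and kept their calls after the length and GC correction, whereas Myl6 (-0.69 ± 0.12) and Myl6b (-1.11 ± 0.22) did not. Mylk3, the kinase of the cardiac regulatory light chain, measured 10975 ± 880 in trametinib hearts and 11283 ± 617 in vehicle hearts (adjusted p = 0.678), and the myosin phosphatase subunit Ppp1r12b was higher (0.64 ± 0.08, adjusted p = 0.000901). With the correction Mylk4 gained a call as lower (-0.44, adjusted p = 0.0176). The corrected list of light chains and their enzymes had 3 lower and 1 higher (median -0.11).

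The Z-disc partners of Tcap and Csrp3 had 6 of 15 tested genes lower and 2 higher (median -0.26). Calsarcin, Myoz2, which binds both telethonin and alpha-actinin, was lower (12758 ± 612 normalized counts in trametinib hearts and 22883 ± 1622 in vehicle hearts; -0.84 ± 0.07, adjusted p = 0.000274; corrected for length and GC content, -0.42, adjusted p = 0.00379). Fhl2, another LIM protein (-0.42 ± 0.05), the chaperone Cryab (-0.41 ± 0.08) and the kinase-like scaffold Ilk (-0.42 ± 0.08) were lower too but lost their calls with it, with Cryab turning to 0.14. Filamin C, Flnc, was higher (0.71 ± 0.09) but lost its call after the correction (0.31, adjusted p = 0.0741). The corrected list of partners had 1 lower and 0 higher (median -0.07).

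Of 13 kinases and phosphatases that act on the thin filament or its partners, 4 were lower and 2 higher (median 0.05). Tnni3k, a kinase that binds cardiac troponin I, was lower (223 ± 22.3 normalized counts in trametinib hearts and 341 ± 51.4 in vehicle hearts; -0.61 ± 0.14, adjusted p = 0.00913), as was Camk2d (-0.33 ± 0.05), both also after the length and GC correction. The catalytic subunits of protein kinase A went opposite ways, Prkaca at -0.40 ± 0.05 and Prkacb at 0.39 ± 0.06. Prkaca lost its call with that correction (-0.14, adjusted p = 0.0634) and Prkacb kept its own (0.20, adjusted p = 0.037). Ppp1ca and Prkg1 also lost their calls. Prkca (-0.34, adjusted p = 0.00477), Ppp1cb (-0.20, adjusted p = 0.0471) and Ppp2ca (-0.31, adjusted p = 0.018) gained calls as lower. The corrected list of kinases and phosphatases had 5 lower and 1 higher (median -0.14). The sarcomere chaperones and ubiquitin ligases had 2 of 11 tested genes higher, Hsp90aa1 (0.63 ± 0.09) and the myosin chaperone Unc45b (0.27 ± 0.06). In this list 1 was lower, Hspb1 (-0.53 ± 0.08, or 0.08 after the correction, adjusted p = 0.385), and 8 missed the threshold (median 0.08). The corrected list of chaperones and ligases had 0 lower and 3 higher (median 0.15).

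Of 14 tested transcription factors known to drive contractile genes, 8 were higher and 0 lower (median log2 fold change 0.39), beside 21.6% of all tested genes higher. After the length and GC correction 6 were higher and 0 lower, beside 15.3% higher. Several are long transcripts, such as Tead1 (7497 nt) and Tbx20 (5446 nt), in the length bin where 50.9% of genes were higher. As deposited, the other 6 did not pass, among them Gata4 (-0.18), Hand2 (-0.18) and Nkx2-5 (-0.04), named after their values were seen. With the correction Nkx2-5 turned and gained a call as higher (0.30, adjusted p = 0.0166). The 6 higher after the correction are therefore not all among the 8 higher as deposited. The list was not tested against the members. Tead1, which binds CATTCC, measured 11065 ± 730 normalized counts in trametinib hearts and 5909 ± 222 in vehicle hearts (SD, n = 3 each; 0.90 ± 0.06, adjusted p = 0.000216). Mef2a (3615 ± 289 in trametinib hearts and 2331 ± 254 in vehicle hearts; 0.64 ± 0.10, adjusted p = 0.00166), Tbx20 (0.64 ± 0.10) and Srf, serum response factor (3695 ± 369 in trametinib hearts and 2722 ± 114 in vehicle hearts; 0.44 ± 0.08, adjusted p = 0.00433), were higher too, with the SRF cofactor Mkl2 (0.43 ± 0.08; 0.19 after the correction, adjusted p = 0.0944).

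**Figure D5:**
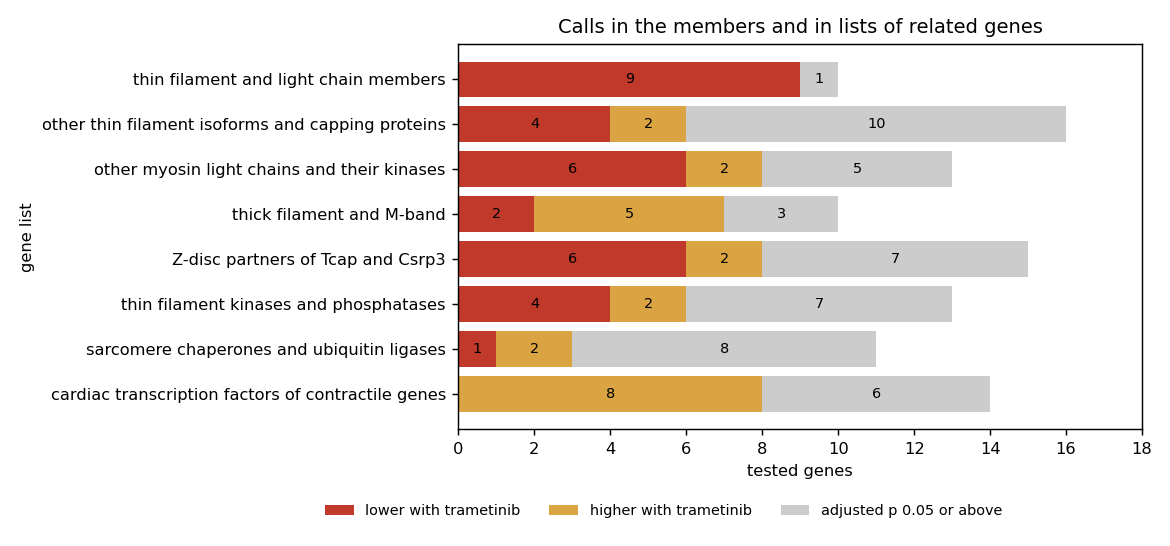
Number of tested genes that were lower (red), higher (ochre) or did not pass an adjusted p of 0.05 (grey) with trametinib, for the 10 members and 7 lists of related genes. The members have 9 lower and 0 higher, and the transcription factors 0 lower and 8 higher.

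The genes with a profile over the 6 hearts most like the mean of the members came from outside the sarcomere. Likeness was the root-mean-square difference between centred log2 profiles, over 4007 genes with a mean of at least 1000. The 5 nearest were Bri3 (0.013), Grpel1, a cochaperone of mitochondrial protein import (0.022), Prdx2, a peroxiredoxin (0.0225), 4930412F15Rik (0.0246) and Idh3b, a subunit of the citric acid cycle enzyme isocitrate dehydrogenase (0.0253). Their log2 fold changes ran from -0.72 to -0.71, a closeness that follows from choosing them by profile. Single members ran from -1.60 to -0.11, so the mean profile does not describe each of them.

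Marker lists of other cell types were read beside 22.8% of all tested genes lower and 21.6% higher. Of 8 ventricular cardiomyocyte markers, 4 were higher and 3 lower, and they summed to between 2057398 and 2186896 normalized counts in trametinib hearts and between 1836088 and 1924765 in vehicle hearts, so the labelled tissue showed its markers in every heart. All 6 neutrophil markers were higher (sums of 1648 to 3465 in trametinib hearts and 133 to 513 in vehicle hearts), as were 3 of 4 erythroid markers (54923 to 194059 and 19814 to 27340, the highest in trametinib replicate 1). Of 7 fibroblast markers 5 were lower and 1 higher (53384 to 56650 and 78852 to 99606). Most of this difference in sums came from Gsn (23810 ± 1808 in trametinib hearts and 57204 ± 7373 in vehicle hearts, SD). Dcn, the next most abundant fibroblast marker, did not pass (log2 fold change 0.08, adjusted p = 0.506). Of 6 macrophage markers 3 were lower (3668 to 4654 and 5405 to 5933). Near the share over all genes were the endothelial markers, with 2 of 6 higher (19424 to 21825 and 16028 to 19407), and the smooth muscle markers, with 1 of 5 higher and overlapping sums (3238 to 7532 and 3870 to 9286). Of 9 skeletal muscle markers 5 were below the minimum mean value, 1 was higher and 1 lower (38430 to 39764 and 53721 to 59032, nearly all of it Ckm, which heart also expresses). After the length and GC correction 13.8% of tested genes were lower and 15.3% higher. Of the ventricular markers 2 were then lower and 1 higher, and of the endothelial markers 1 lower and 0 higher. The macrophage markers then had 2 lower, and the counts for the other cell types here did not change. Among the fibroblast markers the genes behind the count did change. Dcn gained a call as higher (0.31, adjusted p = 0.0407), and Pdgfra lost its own and turned (-0.12, adjusted p = 0.288). No marker was at 0 in all hearts, and the part of these cell types in the members' values was not tested.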

How the data were processed

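The authors deposited a normalized signal per gene: the values behave as estimated counts, each library divided by its own factor. The upper quartile of values above 0 was 998 to 999 in every library, and only 87.7% to 89.6% of low values (under 50 times a library's smallest step) were whole multiples of that step to within 0.05, too few to treat them as counts. Picard 1.64, SAMtools, RSEM, DESeq2 and mm9 are named without roles, per the submitters' processing notes, and a stranded mRNA kit, a single-end NextSeq run and 2 RNA isolation kits, without saying which heart had which, per the labels' protocols. No source used here gives the aligner or the annotation. The table holds 1 more library under its control header that no label names; it was left unused, although the authors' deposited control means include it.

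The 13581 of 21705 genes whose mean reached 10 were tested with limma 3.58.1 (R 4.3.3), with a mean-variance trend, on log2(value + 1), with Benjamini-Hochberg adjustment and a threshold of 0.05. The 26 symbols turned into numbers were restored from Entrez identifiers. Transcript length and GC content were means over GENCODE M21 transcripts with a RefSeq mRNA record (otherwise protein-coding, otherwise all), found for 21509 genes. The correction subtracted lowess curves (span 0.3) on length, then on GC content, from each library. Ratios were tested with exact permutations in scipy 1.17.1. The code was tested on simulated libraries. P-values measure the spread between these hearts.

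Members and lists were chosen with earlier results of these data known. Named genes were all members, up to 5 per related list by smallest p, isoforms and partners of members set by name, and the 5 nearest profiles. Alternatives covered pseudocount, filter, scaling, robust fitting, voom, thinning, length and GC correction, haemoglobin removal, the replicate block and each heart left out.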

Additional observations from a re-analysis of the deposited data

How the results depend on the processing

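Between 7 and 9 members were lower under every alternative run but the length and GC correction, which left 4 members lower, 1 higher and 1874 genes lower. That correction also turned the log2 fold changes of Tnnt2 (0.25) and Tnni3 (0.14); the cause was not tested. With quantile normalization 7 members were lower: the calls of Tnnt2 (0.00), Tnni3 (-0.36, adjusted p = 0.0654) and Actc1 (-0.10, adjusted p = 0.414) were lost and that of Mybpc3 was gained, and this method fixes the value at each rank, which weighs on genes at the top of the table. With a heart left out, 8 or 9 members were lower and 0 higher, and the lost calls were of Tnnt2. With the replicate number as a block 9 members were lower, as without it. Deviations of same-numbered hearts correlated at 0.238, 0.0191 and 0.50, and trametinib replicate 2 correlated best with vehicle replicate 1 (0.285). With 3 hearts per arm these values cannot settle whether the numbers pair the hearts. The 9 ratios kept their direction under all of their alternatives; 5 moved beyond the spread between hearts with the length and GC correction, Actc1/Myh6 to -0.37, Tcap/Mybpc3 to -0.78, Tnnc1/Tnni3 to -0.28, Tnnt2/Tnni3 to 0.11 and Myl3/Myl2 to -0.27. With 3 hearts per arm, exact tests could not pass 0.05. The adjusted p of Mybpc3 does not show that it was unchanged.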
